A study of Homo sapiens with 2 samples.

Results

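The DLK1-MEG3 imprinted locus was examined in the human colon cancer line HCT116, treated with 0.5 μM of decitabine (DAC) or mock-treated. It was followed through 6 genes chosen by name, *MEG3*, *MEG8*, *MEG9*, *DLK1*, *RTL1*, and *DIO3*, out of 33538 listed genes. DAC is a cytidine analog that traps DNA methyltransferases after it enters DNA, so that dividing cells lose methylation. DAC was given on days 1 and 3 after seeding, and collection on day 7 followed a drug-free interval from day 5. Each condition gave 1 droplet library, in which every captured transcript is counted near its poly(A) tail by a unique molecular identifier (UMI). The locus was chosen with the high *MEG3* counts of DAC-treated cells known, so the differences between the libraries are given here as a description, without a test.

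The locus lies on the long arm of chromosome 14, and its genes are expressed according to the parent from whom the chromosome came. The maternal chromosome expresses long non-coding RNAs, *MEG3*, *MEG8*, and *MEG9*, which span clusters of small nucleolar RNAs and microRNAs. The paternal chromosome expresses protein-coding genes, *DLK1*, an inhibitor of adipocyte differentiation related to NOTCH ligands, *RTL1*, a placental gene derived from a retrotransposon, and *DIO3*, the deiodinase that inactivates thyroid hormone. DNA methylation at control regions, one upstream of *MEG3* and one at its promoter, is normally present on the paternal chromosome only and keeps *MEG3* silent there.

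The mock-treated library held 1783 cells and 49911689 UMIs (27899 in the median cell), and the DAC-treated library held 1751 cells and 59046165 UMIs (35340 in the median cell). Barcodes shared by both libraries numbered 12. Mitochondrial genes took more than 50% of the UMIs of 311 mock-treated and 319 DAC-treated cells, and the shares of cells with the maternally expressed RNAs are also given without these cells and without cells under 10000 UMIs. The epithelial markers *EPCAM*, *KRT8*, *KRT18*, *KRT19*, *CDX2*, and *CDH1* were all present in both libraries. Levels are given as CPM, UMIs scaled to a library total of 1000000, and these markers together were at 4943 CPM in mock-treated and 7965 CPM in DAC-treated cells. *KRT8*, *KRT18*, *KRT19*, and *CDX2* were higher in DAC-treated cells. *EPCAM* (349 CPM in mock-treated and 222 CPM in DAC-treated cells) and *CDH1* (23.1 and 21.1 CPM) were lower. The 8 markers of other cell types together were at 10.7 and 21.4 CPM. Among them, *PTPRC*, *CD3E*, *PECAM1*, *COL1A2*, *DCN*, and *CHGA* were at 0 in the mock-treated library and had 9 to 46 UMIs in the DAC-treated library, *ALB* had 1 and 4 UMIs, and *COL1A1* had 533 and 1112 UMIs. Their part in the results was not tested.

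DAC acts on DNA methylation, which in human cells is found at CG dinucleotides, so the promoters of the most different, a weakly detected, and an undetected member are shown with every CG in capitals. Each is the 250 bases before a RefSeq start on GRCh38.p14, written 5′ to 3′ along the gene's own strand. The *MEG3* stretch is chr14:100825858-100826107 on the plus strand, the *MEG9* stretch is chr14:101069661-101069910 on the plus strand, and the *RTL1* stretch is chr14:100903723-100903972 on the minus strand.
MEG3: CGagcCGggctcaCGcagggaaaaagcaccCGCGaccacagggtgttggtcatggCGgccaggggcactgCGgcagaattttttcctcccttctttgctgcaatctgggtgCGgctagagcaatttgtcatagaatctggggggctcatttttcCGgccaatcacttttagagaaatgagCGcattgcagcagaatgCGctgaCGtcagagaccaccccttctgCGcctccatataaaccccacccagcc
MEG9: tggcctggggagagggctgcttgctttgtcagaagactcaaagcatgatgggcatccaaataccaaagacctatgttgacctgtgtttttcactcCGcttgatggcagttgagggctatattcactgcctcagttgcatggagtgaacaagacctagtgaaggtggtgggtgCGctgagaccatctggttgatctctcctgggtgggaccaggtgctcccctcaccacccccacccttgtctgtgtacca
RTL1: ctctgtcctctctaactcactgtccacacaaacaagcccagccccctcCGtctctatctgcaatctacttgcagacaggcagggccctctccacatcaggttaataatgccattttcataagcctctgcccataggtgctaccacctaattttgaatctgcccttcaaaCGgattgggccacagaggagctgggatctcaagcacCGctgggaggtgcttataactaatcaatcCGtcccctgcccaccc

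The *MEG3* promoter held 13 CGs, against a median of 11 over 34788 different RefSeq promoters of the same length. *MEG9* had 2 CGs, *RTL1* 4, *DIO3* 22, and its antisense partner *DIO3OS* 38. *MEG8* and *DLK1* were not matched. The cAMP response element TGACGTCA, which reads the same on both strands and includes a CG, starts 50 bases before the *MEG3* start and was in 1.64% of all promoters. A match to TGCCGC, a sequence bound by the imprint-keeping protein ZFP57, starts 181 bases before it on the minus strand, and 12.8% of all promoters held one on either strand. These are matches of letters only, and no methylation or binding was measured here. RefSeq lists 3 nearby starts for *MEG3*, and the first is shown. This start and that of *MEG9*, which is near the end of its gene, lie inside the longer genes that GENCODE annotates, so these stretches may not be the promoters of the RNAs counted.

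*MEG3* (ENSG00000214548, chromosome 14 of hg38 from 100779410 to 100861031, plus strand) had 2 UMIs in the mock-treated library and 11356 in the DAC-treated library. This is 0.0401 CPM (95% confidence interval 0.00485 to 0.145) against 192 CPM (189 to 196), a log2 ratio of 12.23 (10.38 to 15.27), and these intervals and those below cover counting error only. The wide interval of the ratio comes from the 2 UMIs in mock-treated cells. The DAC-treated value ranked 658 among all genes. *MEG8* (ENSG00000225746, from 100894770 to 101038859, plus strand) had 27 UMIs in mock-treated and 1757 in DAC-treated cells, a CPM ratio of 55.0 (95% confidence interval 37.7 to 83.7). *MEG9* (ENSG00000223403, from 101042908 to 101072937, plus strand) had 0 and 96 UMIs. Taking 3 counts over the mock-treated library as the limit of a count of 0, its CPM in DAC-treated cells was at least 27.0-fold higher. With the counting error of both libraries, the lower 95% limit of the ratio was 21.6. All 3 non-coding RNAs were thus below 1 CPM in mock-treated cells, and their order in DAC-treated cells was *MEG3*, *MEG8*, and *MEG9*, with intervals that did not overlap. The order is one of captured UMIs, which are not divided by length, since counting is at the RNA end.

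The protein-coding members were much rarer than *MEG3* and *MEG8*. *DLK1* (ENSG00000185559, from 100725705 to 100738224, plus strand) was seen in 2 mock-treated cells with 2 UMIs and in 40 DAC-treated cells with 61 UMIs, a ratio of 25.8 with a wide interval from 6.84 to 218. *DIO3* (ENSG00000197406, from 101560139 to 101563452, plus strand) was seen in 8 mock-treated cells with 10 UMIs and in 55 DAC-treated cells with 74 UMIs, a ratio of 6.26 (95% confidence interval 3.22 to 13.6). With the mean of per-cell CPM, the log2 ratio of *DIO3* was 3.79 in place of 2.65, and that of *DLK1* was 5.53 in place of 4.69. In DAC-treated cells these genes were at 1.03 CPM (0.790 to 1.33) and 1.25 CPM (0.984 to 1.57), and *MEG9* was at 1.63 CPM (1.32 to 1.99), so the intervals of these neighbouring levels overlapped. *RTL1* (ENSG00000254656, from 100879753 to 100903722, minus strand) had no UMI in either library, which allows up to 0.0601 CPM in mock-treated and 0.0508 CPM in DAC-treated cells (3 counts). Its annotated region lies opposite the non-coding gene *AL117190.1*, and in part opposite *MEG8*, in GENCODE release 44, whose gene models may differ from those used for the counting.

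Of the 6 members, 5 had 20 UMIs or more in both libraries together, and in all 5 the DAC-treated library was at least 2-fold higher. Among all 17368 genes with as many UMIs, 22.8% were at least 2-fold higher and 7.86% at least 2-fold lower. Nothing is read from the members' count, because the locus was chosen from this contrast and *MEG3*, *MEG9*, *DLK1*, and *DIO3* reached 20 UMIs only through the DAC-treated library. The median log2 ratio was 4.76 over the 5 members, the limit of *MEG9*, and 0.29 over all those genes. Median-of-ratios scaling would lower every log2 ratio by 0.18.

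The imprinted stretch was also set beside the genes within 1 Mb on either side. From *DLK1* to *DIO3*, 16 genes were listed, of which 11 had no UMI in mock-treated cells. The stretch as a whole had 47 UMIs in the mock-treated and 13463 in the DAC-treated library. The 7 genes with 20 UMIs or more had log2 ratios from 2.65 to 12.23. Of these, *MEG8* alone had 20 UMIs in mock-treated cells, and the other 6 passed the minimum through the DAC-treated library, so their direction was set by the filter and nothing is read from the contrast with the flanks. Besides the members, they were *AL117190.1* and *DIO3OS*. *AL117190.1*, named *MIR493HG* in GENCODE release 44 and overlapping *MEG3* and *MEG8* on the same strand, had 0 UMIs in mock-treated and 50 in DAC-treated cells, at least 14.1-fold higher. *DIO3OS*, the antisense partner of *DIO3*, had 6 and 45 UMIs, a ratio of 6.34 (95% confidence interval 2.70 to 18.2). Their annotated regions overlap those of members, and the sources used here do not state how the counting treated such reads or strands, so these counts may not be separate from those of *MEG3*, *MEG8*, and *DIO3*. Within 1 Mb on the *DLK1* side, none of 10 such genes differed by 2-fold, and their log2 ratios ranged from -0.96 for *WARS*, a tryptophanyl-tRNA synthetase, to 0.43 for *EML1*, a microtubule-binding protein. With median-of-ratios scaling, *WARS* was at -1.14 and past 2-fold. *BEGAIN*, the nearest of them to *DLK1*, had 149 UMIs in mock-treated and 172 in DAC-treated cells, a log2 ratio of -0.04, and *WDR25* was at -0.17. *YY1*, a zinc finger transcription factor, was at 0.41. On the *DIO3* side, 2 of 14 genes were at least 2-fold higher and 1 was lower, and *PPP2R5C*, a regulatory subunit of protein phosphatase, was at -0.02.

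**Figure D1:**
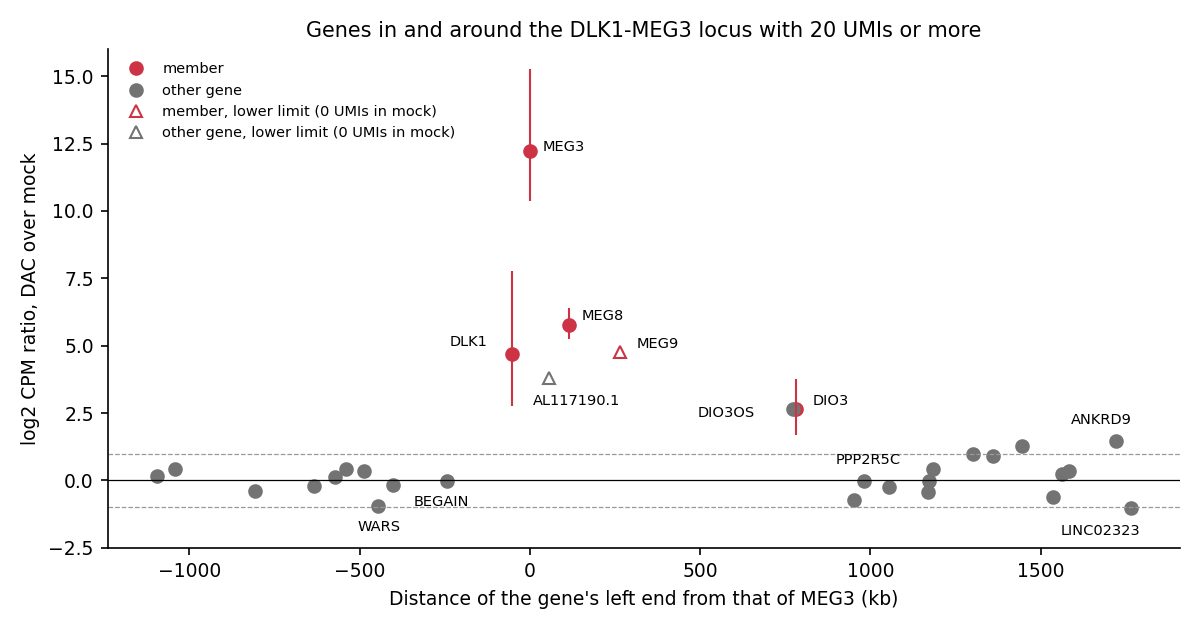
Log2 ratio of the share of all UMIs, DAC-treated over mock-treated, for genes with 20 UMIs or more in both libraries together, by the distance of the gene's left end from that of *MEG3* in kb. Red points are members with their 95% counting intervals, grey points are other genes, triangles are lower limits for genes at 0 in mock-treated cells, and dashed lines mark 2-fold. The 7 genes from *DLK1* to *DIO3* sit between 2.65 and 12.23, the 10 genes on the *DLK1* side between -0.96 and 0.43, and the 14 genes on the *DIO3* side between -1.03 and 1.47. Among the 7, *MEG8* alone passed the minimum without the DAC-treated library.

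*MEG3* UMIs were detected in about every other DAC-treated barcode, with widely different counts. It had at least 1 UMI in 927 DAC-treated cells (52.9%, exact 95% confidence interval 50.6 to 55.3%). Only 2 mock-treated cells had one (0.112%, 0.0136 to 0.405%). At 3 UMIs or more, the study's threshold for upregulation, there were 694 DAC-treated cells (39.6%, 37.3 to 42.0%). No mock-treated cell reached it, which allows a share of up to 0.207%. Among the 927 cells with the RNA, 156 had exactly 1 UMI, the quartiles were 2, 7, and 16 UMIs, and the maximum was 199. A UMI in a droplet can also come from free RNA, and since no cells known to lack *MEG3* were in the DAC-treated library, its part in these shares and those of the other members was not tested. The 86 cells with 30 UMIs or more held 36.9% of all *MEG3* UMIs. If every DAC-treated cell had taken an equal share of its UMIs from *MEG3*, 323 cells would have had none, and 824 had none. Without the cells under 10000 UMIs or over 50% mitochondrial UMIs, the share with *MEG3* was 65.4% (62.5 to 68.1%). With each cell of 10000 UMIs or more thinned to 10000, *MEG3* was present in 640 of 1293 DAC-treated cells (49.5%). It was present in none of 1388 mock-treated cells, which allows up to 0.265%.

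*MEG8* had at least 1 UMI in 602 DAC-treated cells (34.4%, 32.2 to 36.7%), against 26 mock-treated cells (1.46%, 0.955 to 2.13%). Its highest count was 44 UMIs in a DAC-treated cell and 2 in a mock-treated cell, and 238 DAC-treated cells (13.6%) had 3 UMIs or more. An equal share would have left 825 DAC-treated cells without *MEG8*, and 1149 had none. Without the cells under 10000 UMIs or over 50% mitochondrial UMIs, 43.1% (40.2 to 46.1%) of DAC-treated cells had *MEG8* and 17.3% had 3 UMIs or more. After thinning to 10000 UMIs, it was present in 20.5% of DAC-treated and 0.288% of mock-treated cells. *MEG9* was present in 79 DAC-treated cells (4.51%, 3.59 to 5.59%), 3 of them with 3 UMIs or more, and in 6.07% (4.75 to 7.63%) of the cells left by the same filter. The numbers of cells without *MEG9*, *DLK1*, and *DIO3* were 1672, 1711, and 1696, above the 1659, 1692, and 1679 from an equal share. The excess is small beside the empty cells but not beside the 79, 40, and 55 cells with these RNAs. It was not tested, and *DLK1* had 12 of its 61 UMIs in a single cell. The variation of *MEG3* was a squared coefficient of variation of 3.93 beyond Poisson sampling after thinning to 10000 UMIs, and 2.27 when cells over 50% mitochondrial UMIs were also left out.

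**Figure D2:**
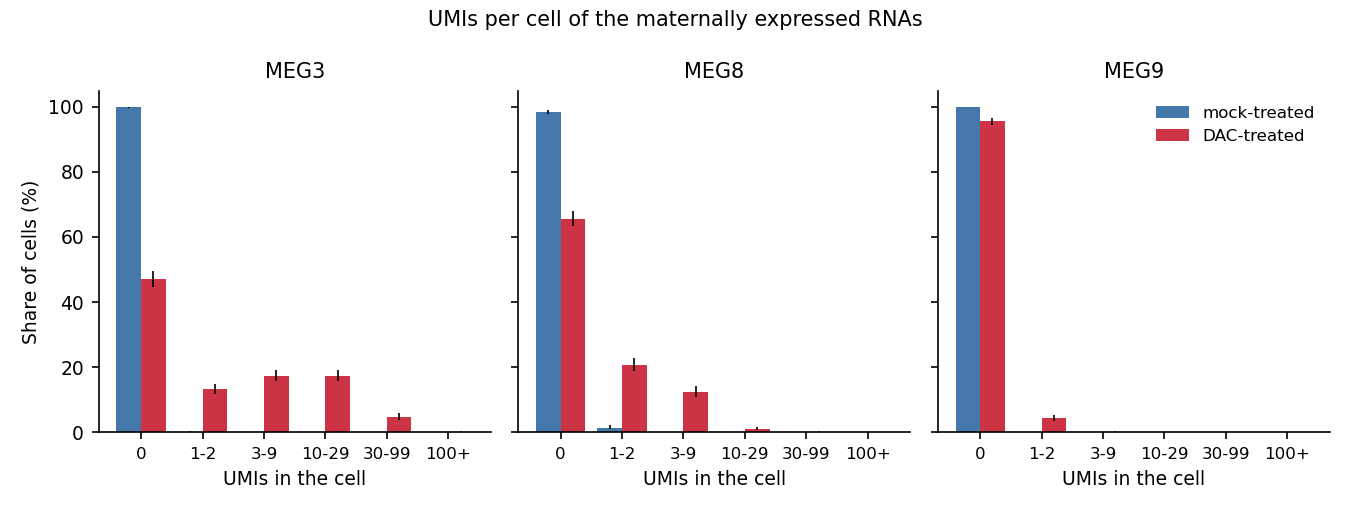
Share of cells in percent by the number of UMIs in the cell, for *MEG3*, *MEG8*, and *MEG9* in mock-treated (blue) and DAC-treated (red) cells, with exact 95% confidence intervals. Of the DAC-treated cells, 39.6% had 3 *MEG3* UMIs or more, 13.6% had 3 *MEG8* UMIs or more, and 4.51% had any *MEG9*.

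The maternally expressed RNAs were mostly detected in cells that had *MEG3*. Of the 602 DAC-treated cells with *MEG8*, 558 (92.7%) also had *MEG3*, and of the 79 cells with *MEG9*, all 79 had *MEG3* and 68 (86.1%) had *MEG8*. Since deep cells show more genes, the number expected was computed from the shares of both RNAs within 10 groups of cells ranked by depth. The expected numbers were 380 for *MEG3* with *MEG8*, 51.2 for *MEG3* with *MEG9*, and 34.3 for *MEG8* with *MEG9*. The observed numbers were 1.47 (Poisson 95% confidence interval 1.35 to 1.60), 1.54 (1.22 to 1.92), and 1.98 (1.54 to 2.52) times the expected ones. The number of shared cells cannot exceed the cells with the rarer gene, a limit that Poisson intervals ignore. All 3 intervals run past it, and *MEG3* with *MEG9*, at all 79 cells, is at this limit. All 3 RNAs were present in 68 cells, *MEG3* alone in 358, and none of them in 780. *MEG8* without *MEG3* was seen in 44 cells, 37 of which had a single *MEG8* UMI. At least 2 members were present in 598 DAC-treated cells. In mock-treated cells, 38 cells had a UMI of any member and none had UMIs of a pair of them. So few cells leave little room for a pair, and nothing is read from this absence.

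*MEG8* and *MEG9* were detected in larger shares of the cells with more *MEG3*. In the cells compared here, the median total was 41079 UMIs without *MEG3* and 50271.5 UMIs with 30 *MEG3* UMIs or more. Their median mitochondrial shares were 18.6% and 22.4%, and the part of depth and mitochondrial content was not tested. Among the DAC-treated cells with 10000 UMIs or more, *MEG8* was present in 8.15% of 454 cells without *MEG3* (95% confidence interval 5.80 to 11.1%). The share was 23.4% of 192 cells with 1 or 2 *MEG3* UMIs, 58.8% of 267 cells with 3 to 9, 82.3% of 294 cells with 10 to 29, and 96.5% of 86 cells with 30 or more (90.1 to 99.3%). *MEG9* went from 0 of 454 cells, which allows up to 0.809%, to 30.2% of the cells with 30 or more (20.8 to 41.1%). *DLK1* was present in 0.881% (0.241 to 2.24%) of the cells without *MEG3*, 1.04% of those with 1 or 2 UMIs, 3.37% of those with 3 to 9, 6.46% (3.94 to 9.91%) of those with 10 to 29, and 5.81% (1.91 to 13.0%) of those with 30 or more. *DIO3* was between 2.25 and 6.25% in all 5 classes, with overlapping intervals. *AL117190.1* was seen with *MEG3* in 45 of its 47 cells, 1.56 times the number expected at the same depth (1.14 to 2.09). *LINC02285* is a non-coding gene farther toward *DIO3* with 19 UMIs in DAC-treated and 0 in mock-treated cells. It was seen with *MEG3* in 18 of its 19 cells, where 12.6 were expected, 1.43 times (0.846 to 2.26). The intervals of *AL117190.1* and *LINC02285* reach past all their 47 and 19 cells. They are thus too wide to show whether *LINC02285* departs from the expected number.

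**Figure D3:**
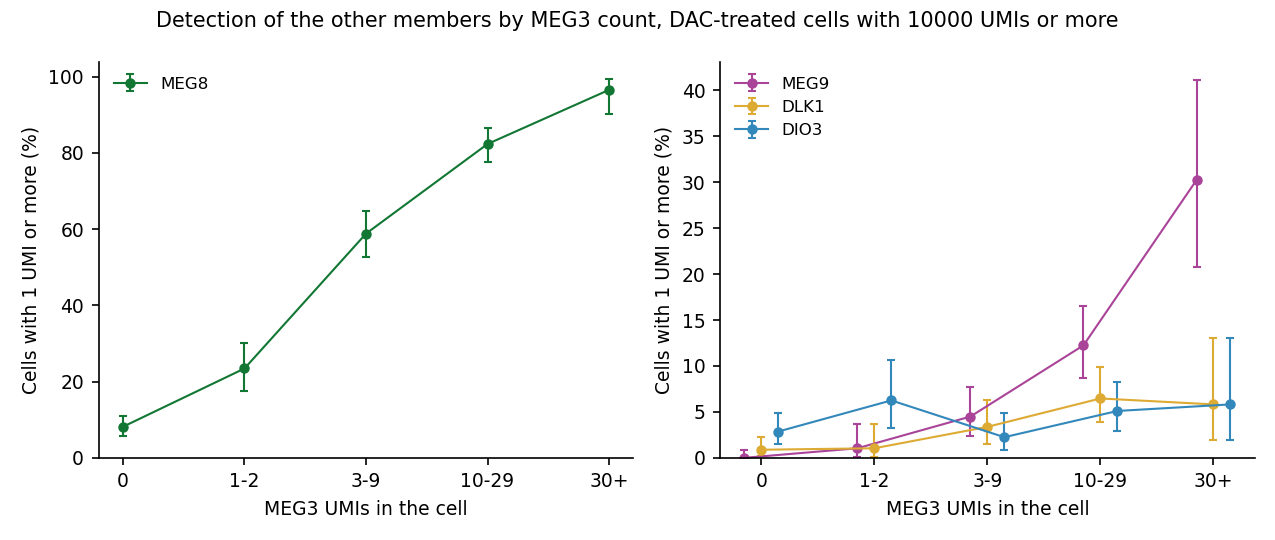
Share of DAC-treated cells in percent with at least 1 UMI of *MEG8* (left) or of *MEG9*, *DLK1*, and *DIO3* (right), by the number of *MEG3* UMIs in the cell, among cells with 10000 UMIs or more. Points are shares with exact 95% confidence intervals, and *MEG8* goes from 8.15 to 96.5% and *MEG9* from 0 to 30.2%.

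*DLK1* was seen with *MEG3* in 36 of its 40 cells, where 26.0 were expected, 1.38 times (Poisson 95% confidence interval 0.969 to 1.92). *DIO3* was seen with *MEG3* in 41 of its 55 cells, where 35.2 were expected, 1.17 times (0.836 to 1.58). Both intervals reach past all cells with the rarer gene, so they are too wide to show whether either number departs from the expected one. *DLK1* and *DIO3*, which lie at opposite ends of the locus, were found together in 8 cells where 1.63 were expected, a ratio of 4.90 (2.11 to 9.65). In these 8 cells, *DLK1* had 1 UMI in 6 cells and 3 and 12 UMIs in the others, *DIO3* had 1 or 2 UMIs, and *MEG3* had 7 to 42 UMIs. Their total counts were between 35619 and 81194 UMIs. *DIO3OS* was found with *DLK1* in 5 cells, 3.44 times the expected number (1.12 to 8.04), and with *DIO3* in 6 cells, 3.12 times (1.14 to 6.78), but with *MEG3* in 28 cells, 0.985 times (0.655 to 1.42). These ratios rest on few cells, and pairs of rare genes can reach higher ratios than common ones. Whether these ratios differ from that of *MEG3* with *MEG8* was not tested.

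**Figure D4:**
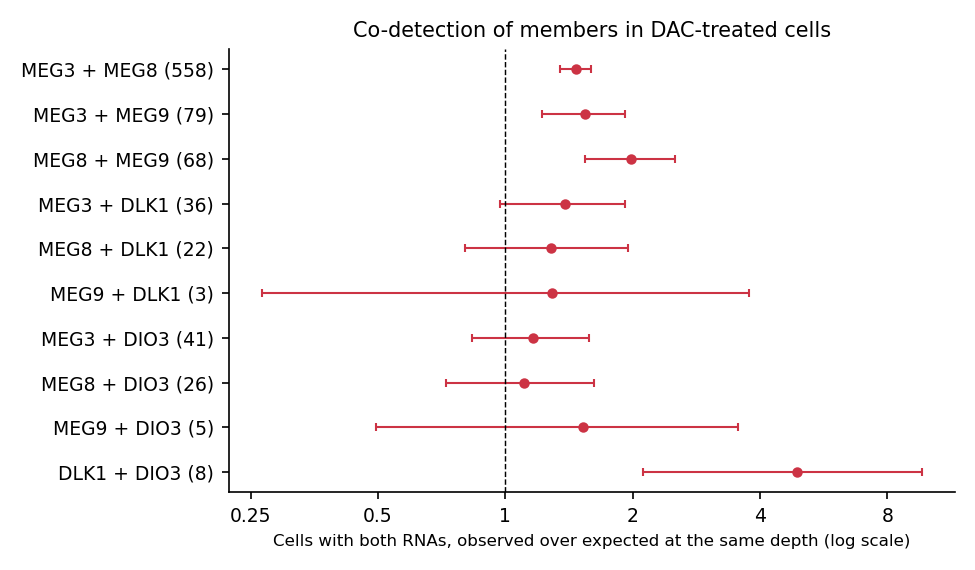
Number of DAC-treated cells with UMIs of both genes of a pair divided by the number expected at the same depth, on a log axis, with Poisson 95% confidence intervals and the observed number of cells in parentheses. *MEG3*, *MEG8*, and *MEG9* sit between 1.47 and 1.98 with each other, and *DLK1* with *DIO3* sits at 4.90. A ratio cannot exceed the cells with the rarer gene over the expected number. This ceiling is lower where a gene is common, so ratios are not directly comparable between pairs.

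The share of UMIs from *MEG3* depended on the depth of the cell. Across the same 10 groups, *MEG3* was at 130 CPM in the shallowest group, 372 to 468 CPM in the next 3 groups, and 148 to 221 CPM in the 6 deepest groups. *MEG8* was at 17.3 CPM in the shallowest group, 78.7 CPM in group 2, 20.7 CPM in group 9, and 31.0 CPM in the deepest. *MALAT1*, a nuclear long non-coding RNA, was at 7168 CPM in the shallowest group, 53260 CPM in group 2, and 11260 CPM in the deepest. The groups 3 and 4 had a median of 61.3% and 53.7% mitochondrial UMIs. Cells with more than 50% mitochondrial UMIs were at 488 CPM of *MEG3* (467 to 510), and cells with at most 20% were at 136 CPM (132 to 139). The part of depth and mitochondrial content in these levels was not tested. *MEG3* was at 169 CPM without cells under 10000 UMIs or over 50% mitochondrial UMIs, against 0.0425 CPM in mock-treated cells filtered in the same way.

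**Figure D5:**
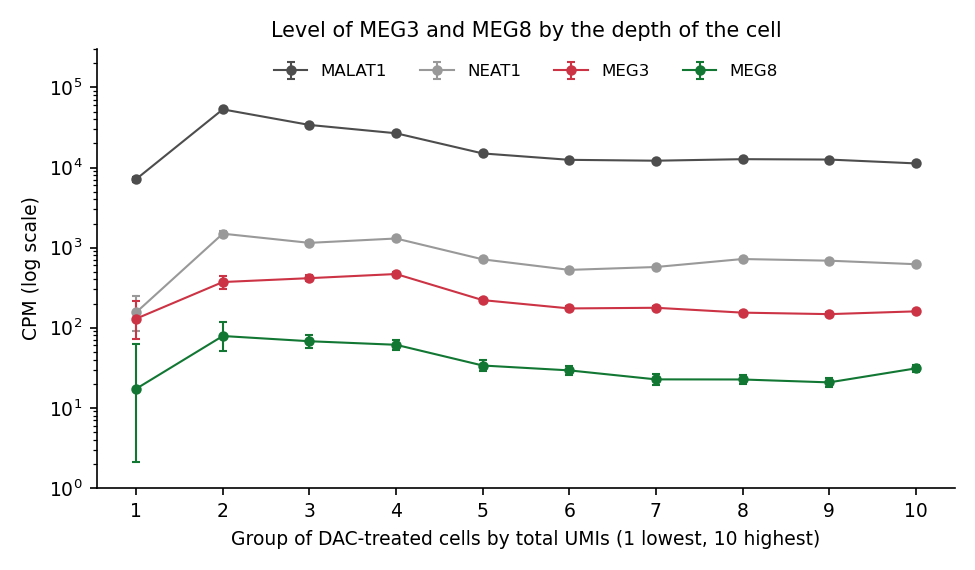
CPM, on a log axis, of *MALAT1*, *NEAT1*, *MEG3*, and *MEG8* in 10 groups of DAC-treated cells ordered by total UMIs, with Poisson 95% confidence intervals. *MEG3* and *MEG8* are highest in groups 2 to 4, at 372 to 468 and 61.1 to 78.7 CPM, as is *MALAT1*, at 26794 to 53260 CPM.

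Over the 1293 DAC-treated cells with 10000 UMIs or more, the log-scaled level of *MEG3* had a Pearson correlation of 0.73 with *MEG8* and 0.30 with *MEG9*. These were the highest among 13134 genes detected in at least 5% of these cells, and rarer genes were not ranked. *DLK1* was at 0.10 and *DIO3* at 0.03. Outside the locus members, the 5 most alike genes were *RSRP1* (0.24), *COX8C* (0.24), *MT-ND5* (0.23), *MT-CYB* (0.22), and *MT-ATP6* (0.22), and the 5 least alike were *HNRNPA1* (-0.30), *HSPD1* (-0.30), *NPM1* (-0.29), *RPS2* (-0.29), and *RPL5* (-0.29). These values are weak, all come from the same library, and the part of depth and mitochondrial content in them was not tested. Without cells over 50% mitochondrial UMIs, the correlation was 0.69 for *MEG8*, 0.31 for *MEG9*, 0.16 for *RSRP1*, and 0.34, above that of *MEG9*, for *COX8C*, a testis-expressed subunit of cytochrome c oxidase with 20 UMIs in mock-treated and 1743 in DAC-treated cells.

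Of 17 listed factors that keep or read genomic imprints, 16 had 20 UMIs or more, 2 of these were at least 2-fold higher, and none was at least 2-fold lower, beside 22.8% and 7.86% of all genes. Their median log2 ratio was 0.44, against 0.29 over all genes. *ZFP57*, a zinc finger protein that protects methylated imprints, went from 0 UMIs in the mock-treated library to 502 UMIs in 359 DAC-treated cells (20.5%), at least 141-fold higher. *UHRF1*, which brings the maintenance methyltransferase to replicated DNA, had a log2 ratio of 1.44, and *DNMT1*, that methyltransferase, 0.91. *TRIM28*, the corepressor that ZFP57 recruits, was at 0.61, and *TET1*, an enzyme that oxidizes methylcytosine, was the lowest at -0.62. *ZFP57* and *MEG3* were found together in 247 cells, 1.04 times the number expected at the same depth (0.915 to 1.18).

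Genes of the pathways in which the members take part differed in both directions. Of 17 NOTCH pathway genes, listed because *DLK1* resembles NOTCH ligands, 7 were at least 2-fold higher and 1 was lower, with a median log2 ratio of 0.79. The ligand *DLL3* had 0 UMIs in mock-treated and 370 in DAC-treated cells, at least 104-fold higher, and *RBPJ*, the DNA-binding partner of NOTCH, was at -1.10. Of 8 thyroid hormone genes, listed for *DIO3*, 5 had 20 UMIs or more, none was at least 2-fold higher, and *KLF9*, a target of the thyroid hormone receptor, was at -1.32. *THRB*, a thyroid hormone receptor, was the highest at 0.42. Of the other deiodinases, *DIO1* had 0 and 3 UMIs and *DIO2* had 1 and 12 UMIs in mock- and DAC-treated cells. Of 11 genes derived from retrotransposon Gag sequences, listed for *RTL1*, 8 had 20 UMIs or more and 4 of these were at least 2-fold higher. *RTL8B* had 1 UMI in mock-treated and 46 in DAC-treated cells, a ratio of 38.9 (6.64 to 1569), *PEG10*, an imprinted relative of *RTL1*, was at a log2 ratio of 2.50, and *RTL8A* was the lowest at -0.82. The background for these counts is the 22.8% and 7.86% of all genes given above, and median-of-ratios scaling did not turn the direction of any list gene named here. With this scaling, 5 NOTCH pathway genes were higher and 2 lower by 2-fold, and 3 Gag-derived genes were higher and 1 lower, beside 19.2% and 10.3% of all genes. Of the genes at least 2-fold higher, 1 imprint factor, 2 NOTCH pathway genes, and 2 Gag-derived genes had fewer than 20 UMIs in mock-treated cells, so that the filter set their direction.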

How the data were processed

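HCT116 cells were measured by droplet scRNA-seq, with 1 mock-treated and 1 DAC-treated library, grouped by the treatment label. Reads had been aligned to hg38 and counted with Cell Ranger by the authors, who deposited raw UMI counts, 1 whole number for each gene in each cell. The annotation release and any filter on cells are not given in the sources used here. Total counts were 49911689 UMIs in the mock-treated and 59046165 UMIs in the DAC-treated library.

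Every cell of the deposited tables was kept, no doublet caller was run, and no test was made, because cells of 1 library are not replicates. UMIs were summed per library and scaled to a library total of 1000000 (CPM). Ratios have exact conditional binomial intervals, UMI sums exact Poisson intervals, and shares of cells exact Clopper-Pearson intervals. All are 95% intervals of the counting error. A gene at 0 was entered at 3 counts per library. Ratios given as at least a value rest on this entry alone, and their exact lower 95% limits are lower. Ratios over all genes used those with 20 UMIs or more in both libraries together. Python 3.11.15, numpy 2.4.6, scipy 1.17.1, pandas 2.3.3, and matplotlib 3.10.9 were used, and the computations were tested on simulated data. Positions and overlaps are from GENCODE release 44 on the same build, whose models may be longer than those used for the counting, and promoter sequences from RefSeq.

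The members and lists were chosen with earlier results of these data known. The genes named are the 6 members, genes past 2-fold within 1 Mb and 4 flanking genes, the highest and lowest of each list, and the 5 genes most and least like *MEG3*. The other genes given, such as *WARS*, *EML1*, *UHRF1*, *DNMT1*, *TRIM28*, *PEG10*, *MALAT1*, *NEAT1*, and *LINC02285*, were chosen after their values were seen. The result of 1 gene list is not reported here. Alternatives were other sets of cells, thinning, other thresholds, depth groups, and scalings.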

Additional observations from a re-analysis of the deposited data

How the results depend on the processing

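With 1 library per condition, no value carries replicate error, and a difference between the cultures other than DAC cannot be told apart from the treatment. No paired analysis was possible because no test was made between 2 single libraries. The log2 ratio of *MEG3*, 12.23, was between 11.96 and 13.38 under the alternatives tried, within its counting interval, and no ratio of a member changed direction. With the mean of per-cell CPM, *DIO3* moved from 2.65 to 3.79 and *DLK1* from 4.69 to 5.53, and without the 5% of cells with the most UMIs *DLK1* was at 5.47. The alternative for a gene at 0 gave no value, since *MEG3* had UMIs in both libraries.

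Shares of DAC-treated cells depended on depth. Without cells under 10000 UMIs or over 50% mitochondrial UMIs, the share with *MEG3* was 65.4% and that at 3 UMIs or more 49.4%, and the squared coefficient of variation was 2.27 in place of 3.93. Thinned to 10000 UMIs, the shares were 49.5% and 26.1%, and thinned to 1000 UMIs the share with *MEG3* was 15.8%. At 2 and 5 UMIs or more, 44.0% and 33.8% of cells had *MEG3*. The ratio of observed to expected cells with *MEG3* and *MEG8* was 1.75 without depth groups and 1.73 with *MEG3* at 3 UMIs or more, in place of 1.47. Genes past 2-fold numbered 5331, and 2396 were past 4-fold. With at least 100 UMIs there were 3130, of which *MEG3* and *MEG8* were the only members. Without a minimum there were 9578. These include genes with 1 UMI in one library and 3 counts entered for 0 in the other. Their call goes against the library in which the UMI was seen.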

Other observations

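Among 25 imprinted genes of other chromosomes and loci, 22 were listed and 18 had 20 UMIs or more. Of these, 5 were at least 2-fold higher with DAC, and 1 was at least 2-fold lower, beside 22.8% and 7.86% of all genes tested, and the median log2 ratio was 0.58, beside 0.29. Of the 5, 4 had fewer than 20 UMIs in mock-treated cells and passed the minimum only through the DAC-treated library, which set their direction. *NDN*, *NNAT*, and *SNRPN*, which are expressed from the paternal chromosome, were without a UMI in mock-treated cells and had 169, 112, and 38 UMIs with DAC, at least 47.6-, 31.6-, and 10.7-fold higher. *DIRAS3*, an imprinted RAS-like growth inhibitor, went the other way, with 150 UMIs in mock-treated and 42 in DAC-treated cells, a ratio of 0.237 (95% confidence interval 0.164 to 0.335). *KCNQ1OT1*, another imprinted long non-coding RNA, had 2120 and 4104 UMIs, a log2 ratio of 0.71.

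Within 1 Mb beyond *DIO3*, the genes past 2-fold were *ANKRD9* at a log2 ratio of 1.47, *MOK*, a protein kinase, at 1.29, and *LINC02323* at -1.03. All 3 were already expressed in mock-treated cells, with 760, 321, and 372 UMIs.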
